A study of Mus musculus with 12 samples.

Results

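The 40 genes described here encode proteins of DNA replication and mitosis, from the licensing of replication origins to the separation of daughter cells. A gene was read from the transcript cluster that names it, a set of array probes read as 1 value, and where several clusters name a gene the one with the highest mean signal over the 12 arrays was taken. By this rule 39 of the 40 genes were measured, each by a cluster that names no other gene, among 21335 genes named by the clusters of the whole table. *Ccnb1* was not analysed here. Neutrophils of wild type (C57BL/6) mice and of Card9-/- mice, which lack the signalling adaptor CARD9 in all cells, were kept for 4 h at 37 °C on immobilized immune complexes (IC) or under the control condition. The cells came from the bone marrow of femurs and tibias by hypotonic lysis and a Percoll gradient, and the labels give them as Ly6G+. The 4 groups, that is cells of each genotype on control and on IC, were present in each of 3 experiments, which makes 3 arrays a group. The mutants carry a germline allele crossed into C57BL/6, the wild type mice were bought, animals of both sexes, 2 to 6 months old, served the study as a whole, and the sources used here name neither how many mice stand behind a sample nor whether intact mice or bone marrow chimeras gave the cells of the arrays.

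Neutrophils are made in the bone marrow, where precursors up to the myelocyte stage divide, and later stages leave the cell cycle. A dividing cell loads MCM helicases onto its origins and switches on genes of DNA synthesis through E2F transcription factors. Later it switches on mitotic genes through a complex with B-MYB. That complex acts at CHR elements of promoters, often beside CCAAT boxes bound by NF-Y. In a preparation of marrow neutrophils the mRNAs of these genes are read as traces of immature, dividing cells, and an array of such RNA cannot tell more dividing cells apart from more mRNA per cell.

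The promoters of the genes were searched for these elements, and 5 of them, from genes of replication and of mitosis, are shown so that the letters counted can be seen. A window from 250 bases before to 50 bases after the start of the gene (RefSeq, GRCm38.p6) was found for 33 of the 39 genes. It was searched on both strands for the E2F sites TTTCCCGC, TTTCGCGC, TTTGCCGC and TTTGGCGC, for the CHR elements TTTGAA and TTTAAA, and for CCAAT. Of the 12 windows of genes for DNA replication and deoxynucleotide supply, 6 held an E2F site (50%) and 4 a CHR element (33.3%). Of the 17 windows of genes for mitosis, 1 held an E2F site (5.88%), that of *Cdk1*, and 15 a CHR element (88.2%). A CHR element and a CCAAT box occurred in the same window in 14 of these 17 genes (82.4%). Among 27025 genes with such a window, the shares were 2.6% for the E2F sites, 30.6% for the CHR elements, 41.1% for CCAAT and 12.2% for CHR with CCAAT. *Ube2c* and *Top2a* had the most CCAAT boxes, with 6 each, and *Tyms*, *E2f1* and *Nusap1* had no match to any of the motifs. *Mcm6*, which was added after its matches were seen, has 3 E2F sites, of which 2 overlap on opposite strands, and the others were taken by their high signal, 2 for replication (*Pcna*, *Rrm1*) and 2 for mitosis (*Ccnb2*, *Cdk1*). The 250 bases before each start are given 5′ to 3′ on the strand of the gene, with matches in capitals, at chr1:128359706-128359955 (minus strand, *Mcm6*), chr2:132253181-132253430 (minus, *Pcna*), chr7:102441445-102441694 (plus, *Rrm1*), chr9:70421555-70421804 (minus, *Ccnb2*) and chr10:69352913-69353162 (minus, *Cdk1*).
Mcm6: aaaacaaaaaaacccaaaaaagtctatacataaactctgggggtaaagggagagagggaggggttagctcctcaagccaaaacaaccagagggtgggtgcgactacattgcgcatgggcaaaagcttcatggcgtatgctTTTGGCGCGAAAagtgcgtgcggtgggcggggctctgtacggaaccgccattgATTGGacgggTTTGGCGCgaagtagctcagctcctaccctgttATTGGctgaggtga
Pcna: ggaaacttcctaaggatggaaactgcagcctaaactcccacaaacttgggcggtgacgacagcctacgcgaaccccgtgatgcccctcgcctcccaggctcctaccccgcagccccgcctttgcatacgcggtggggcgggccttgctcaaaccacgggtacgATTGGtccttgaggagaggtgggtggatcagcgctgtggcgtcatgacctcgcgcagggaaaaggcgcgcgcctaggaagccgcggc
Rrm1: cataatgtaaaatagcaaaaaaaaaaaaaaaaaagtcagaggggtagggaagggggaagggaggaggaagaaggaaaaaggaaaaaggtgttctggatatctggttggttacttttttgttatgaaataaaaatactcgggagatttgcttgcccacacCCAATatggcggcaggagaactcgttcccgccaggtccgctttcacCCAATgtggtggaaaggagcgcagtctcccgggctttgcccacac
Ccnb2: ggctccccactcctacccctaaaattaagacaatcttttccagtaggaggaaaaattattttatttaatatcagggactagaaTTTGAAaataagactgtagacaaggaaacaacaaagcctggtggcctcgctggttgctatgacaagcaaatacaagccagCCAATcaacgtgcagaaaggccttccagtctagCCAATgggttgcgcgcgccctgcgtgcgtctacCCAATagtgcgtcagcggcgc
Cdk1: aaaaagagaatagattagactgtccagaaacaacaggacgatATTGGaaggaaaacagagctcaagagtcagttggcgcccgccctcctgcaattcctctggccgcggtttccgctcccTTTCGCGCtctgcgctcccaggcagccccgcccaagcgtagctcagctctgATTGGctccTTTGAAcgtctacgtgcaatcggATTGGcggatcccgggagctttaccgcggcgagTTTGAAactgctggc
In *Ccnb2* 3 CCAAT boxes follow each other before the start, and a second CHR element lies just after it, outside the bases shown. In *Cdk1* the 3 boxes stand as ATTGG, the same element on the other strand, and a CHR element follows each of the last 2. The matches are a description of the letters and not of bound factors.

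The deposited values are log2 signals, so that a difference of 1 is a factor of 2. Array medians ran from 5.70 to 5.75 in experiment 1 and from 5.86 to 5.93 in experiment 2, but only from 5.27 to 5.39 in experiment 3, and the interquartile range was 2.71 to 2.88 in experiments 1 and 2 and 3.04 to 3.32 in experiment 3. The arrays of experiment 3 therefore stand apart, and values between experiments are given both as deposited and relative to the array median. *Card9* itself had a log2 difference between Card9-/- and wild type of −2.52 (standard error 0.22) on control and of −2.27 on IC, lower in 3 of 3 experiments on each surface (limma, adjusted p = 0.00229 and 0.00491). Of the neutrophil markers, *Ly6g* was between 11.8 and 12.6 and *S100a8* between 12.4 and 12.7 on all 12 arrays. Marker genes of earlier neutrophil stages were also high, with *Mpo*, the myeloperoxidase of primary granules, between 10.3 and 11.9.

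In the clusters used, which are the brightest of each gene, all 39 genes had a signal above the median of their array on each of the 12 arrays. A second cluster that names *Top2a* lay below it on each, at 2.30 to 3.85. Over the 12 arrays, the signal of *Pcna*, the sliding clamp of DNA polymerases, lay between 4.32 and 5.90 above the array median, that of *Cdk1*, the kinase that drives mitosis, between 3.29 and 5.27, and that of *Mki67*, the gene of the proliferation marker Ki-67, between 3.85 and 4.87. At the other end *Cdc6*, an origin loading factor, lay between 0.07 and 1.25, and *Tyms*, thymidylate synthase, between 0.36 and 2.42. Levels of different genes are read by different probes and are not compared with each other.

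The signals differed most between the experiments. Averaged over the 39 genes, the signal relative to the array median was 2.15, 2.13, 2.07 and 2.19 on the arrays of experiment 1 (here and below with wild type before Card9-/- and, within a genotype, control before IC). It was 2.56, 2.57, 2.45 and 2.45 on those of experiment 2, and 3.26, 3.03, 3.20 and 3.26 on those of experiment 3. On this scale the 3 experiments did not overlap. As deposited the mean was 7.78 to 7.89, 8.36 to 8.44 and 8.43 to 8.59 in experiments 1 to 3, so that experiments 2 and 3 overlapped and differed by 0.13 in place of 0.68. The range of a gene over the 4 arrays of an experiment had a median of 0.22, 0.16 and 0.35 in experiments 1 to 3, and it was widest for *Cenpe* in experiment 3 (0.80). Gene by gene, the range of the 3 experiment means was larger than the range of the 4 group means in 39 of 39 genes, with a median of 0.85 against 0.15 on the log2 scale, and the ratio of these ranges ran from 1.99 in *Mki67* to 32.4 in *Aurkb*, the kinase of the chromosomal passenger complex. The experiment held a median of 90.6% of the sum of squares of a gene and the group 2.74%, where all 28944 clusters had medians of 82.4% and 5.55%. With each array centred on its median, the share of the experiment was 93.5% for the 39 genes and 67.1% for all clusters.

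**Figure D1:**
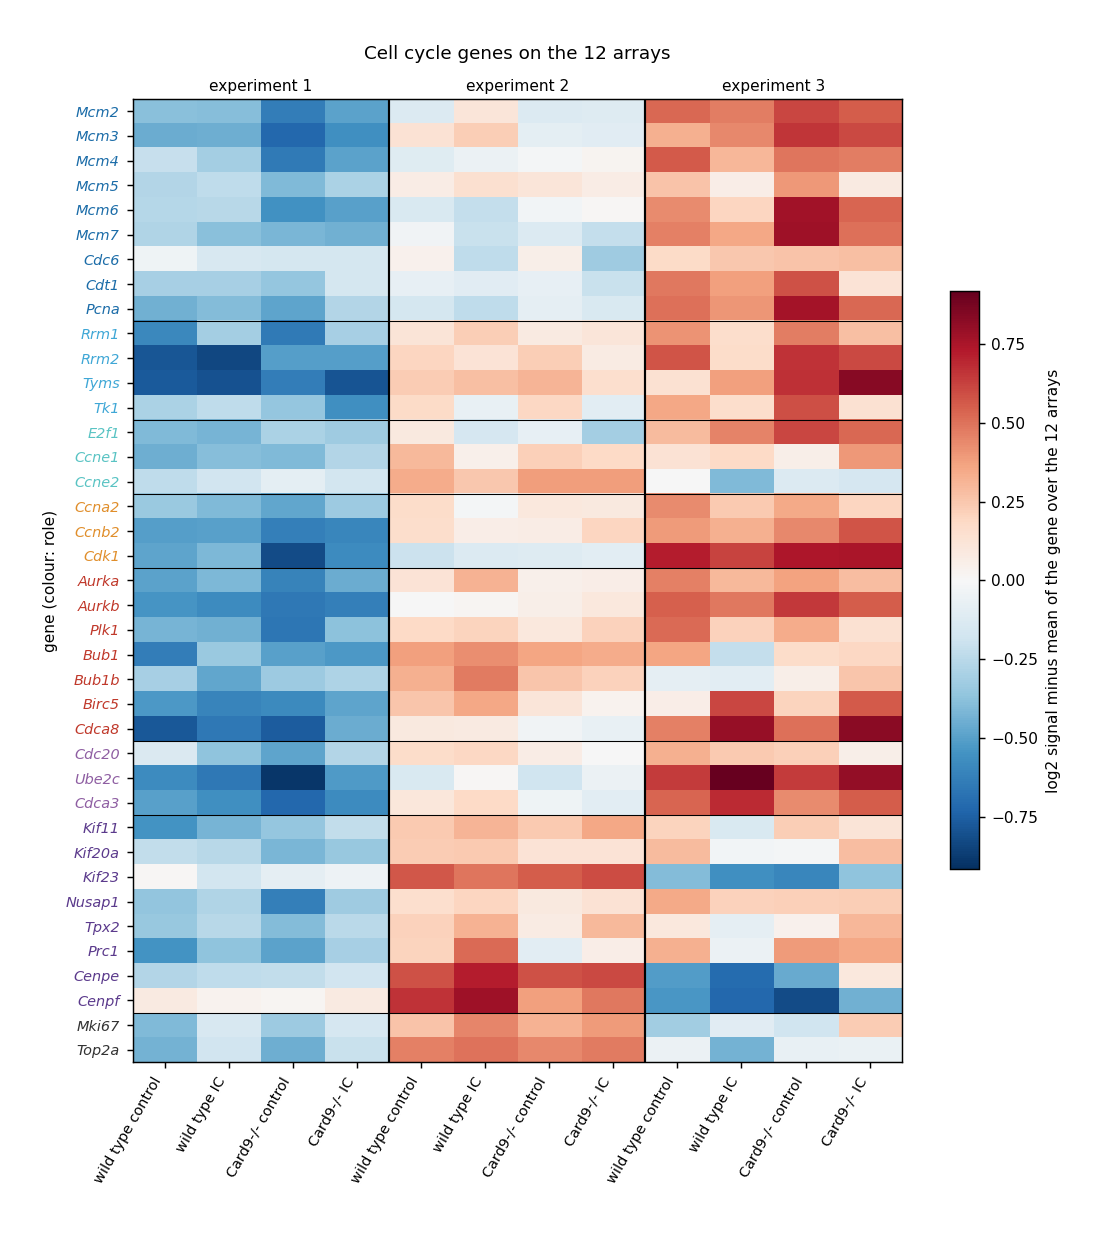
Log2 signal of each of the 39 measured genes (rows, coloured and ruled by role) on the 12 arrays (columns, by experiment and group) minus the mean of the gene over the arrays, in the signals as deposited. Columns of an experiment resemble each other, experiment 1 has the lowest mean in 35 of 39 genes, and *Cenpe*, *Cenpf*, *Kif23* and *Ccne2* have their lowest mean in experiment 3.

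Experiment 1 had the lowest mean for 35 genes and experiment 3 for the other 4, and the highest mean was in experiment 3 for 28 genes and in experiment 2 for 11. All 4 arrays of experiment 2 lay above all 4 of experiment 1 in 36 of 39 genes (36.9% of all clusters) and below them in 0 (5.13% of all clusters), the exceptions being *Cdc6*, *Cdt1* and *E2f1*, which overlapped. All 4 arrays of experiment 3 lay above those of experiment 1 in 33 genes (10.6% of all clusters) and below them in 2, *Cenpf* and *Kif23* (53.4% of all clusters). Against experiment 2, experiment 3 was above in 17 genes (7.57% of all clusters) and below in 7 (66.7% of all clusters). With each array centred on its median, experiment 2 was above experiment 1 in 29 genes (18.2%) and below in 0 (14.8%), experiment 3 was above experiment 1 in 35 (24.4%) and below in 1 (24.2%), and experiment 3 was above experiment 2 in 30 (23%) and below in 2 (27%). The share of the genes in which a later experiment lay above an earlier one was thus larger than that of all clusters on both scales. It was also larger than that of the 14472 clusters above the median signal, among which all 39 genes lie. For experiments 2 over 1, 3 over 1 and 3 over 2, those clusters had 31.8%, 18.3% and 14% as deposited. After centring they had 13.1%, 33.9% and 35.7%. These counts carry no test, because experiments were not replicated.

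In the signals as deposited, the roles of the genes differed in their pattern over the experiments, and part of this turned on the scale. All 9 genes of licensing and synthesis (*Mcm2* to *Mcm7*, *Cdc6*, *Cdt1* and *Pcna*) were higher in experiment 3 than in experiment 1 without overlap, and 8 of them also higher than in experiment 2, with a median log2 difference of 0.51 from experiment 2 (9 genes and 1.05 relative to the array median). *Pcna* had signals of 10.1, 10.1, 10.0 and 10.3 in experiment 1, then of 10.4, 10.3, 10.4 and 10.4, and of 11.0, 10.9, 11.3 and 11.0 in experiment 3. The 4 arrays of experiment 3 were the highest, in both genotypes and on both surfaces. *Rrm1*, *Rrm2*, *Tyms* and *Tk1*, which supply deoxynucleotides, were higher in experiments 2 and 3 than in experiment 1, and as deposited 0 of the 4 separated experiment 3 from experiment 2 (median difference 0.26). Relative to the array median 4 of 4 did, with a median of 0.81, so that on this scale they were ordered like the genes of licensing. For *Tk1* this depends on the cluster used. Another cluster that names it separated the 2 experiments as deposited too, at 6.90 to 7.18 in experiment 2 and 7.47 to 8.18 in experiment 3. *Tyms* was at 6.14, 6.12, 6.28 and 6.13 in experiment 1, then at 7.15, 7.19, 7.23 and 7.07, and at 7.06, 7.29, 7.58 and 7.75 in experiment 3. Of the regulators of S phase entry, *E2f1* had its highest mean in experiment 3 and *Ccne2*, the second cyclin E, in experiment 2. *Ccne1* was level between these experiments as deposited, with overlapping arrays and means of 7.04 in experiment 2 and 7.05 in experiment 3.

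The mitotic cyclins *Ccna2* and *Ccnb2* and their kinase *Cdk1* were ordered like the genes of licensing, with no overlap between any of the experiments. *Cdk1* had signals of 9.33, 9.40, 9.0 and 9.24, then of 9.62, 9.69, 9.70 and 9.72, and of 10.5, 10.4, 10.6 and 10.6 in experiment 3. *Ube2c*, the ubiquitin-conjugating enzyme of the anaphase-promoting complex, had the widest range, with 8.10, 8.02, 7.78 and 8.15 in experiment 1, then 8.53, 8.68, 8.49 and 8.62, and 9.31, 9.59, 9.32 and 9.48 in experiment 3. Its mean difference between experiments 3 and 1 was 1.41 as deposited and 1.79 relative to the array median. All 7 genes of mitotic kinases, the spindle checkpoint and the chromosomal passenger complex were higher in experiments 2 and 3 than in experiment 1 without overlap, and *Aurkb* and *Cdca8* also separated experiment 3 from experiment 2 (5 of the 7 relative to the array median). *Aurkb* had 8.82, 8.79, 8.71 and 8.74, then 9.36, 9.38, 9.42 and 9.46, and 9.91, 9.85, 10.0 and 9.92 in experiment 3, so that its groups differed little within each experiment. *Bub1*, a checkpoint kinase, was at 6.85, 7.14, 6.99 and 6.95, then at 7.86, 7.91, 7.84 and 7.82, and at 7.84, 7.26, 7.65 and 7.67 in experiment 3. Its wild type IC array of experiment 3 lay below the other 3 of that experiment.

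Of the 8 genes of the spindle and kinetochore, 1 shared this order as deposited, *Nusap1*, a microtubule-binding protein of the spindle, at 8.28 to 8.63, 8.99 to 9.10 and 9.11 to 9.25 in experiments 1 to 3. The sign of this role turned with the scale. Its median log2 difference between experiments 3 and 2 was −0.16 as deposited (1 gene above and 4 below without overlap), 0.39 relative to the array median (4 above, 2 below) and 0.31 after quantile normalization (5 above, 3 below). As deposited, 4 of them (*Kif11*, *Kif23*, *Cenpe* and *Cenpf*) were lower in experiment 3 without overlap, as were *Mki67*, *Top2a* and *Ccne2*. *Cenpf*, which encodes a large protein of the outer kinetochore, had signals of 6.86, 6.81, 6.79 and 6.86 in experiment 1, then of 7.44, 7.55, 7.15 and 7.26, and of 6.24, 6.06, 5.96 and 6.33 in experiment 3. *Kif23*, a kinesin of the central spindle needed for cytokinesis, had 8.98, 8.80, 8.88 and 8.92, then 9.54, 9.46, 9.52 and 9.56, and 8.57, 8.41, 8.37 and 8.60 in experiment 3. Both genes were lowest in experiment 3 on every array as deposited. Relative to the array median, *Cenpf* and *Kif23* stayed below experiment 2 (−0.66 and −0.49), *Cenpe*, the kinesin that carries chromosomes to the metaphase plate, was at −0.47 with overlap, *Top2a*, the topoisomerase that untangles sister chromatids, was at −0.08, and *Mki67*, *Ccne2* and *Kif11* turned to 0.10, 0.04 and 0.36.

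**Figure D2:**
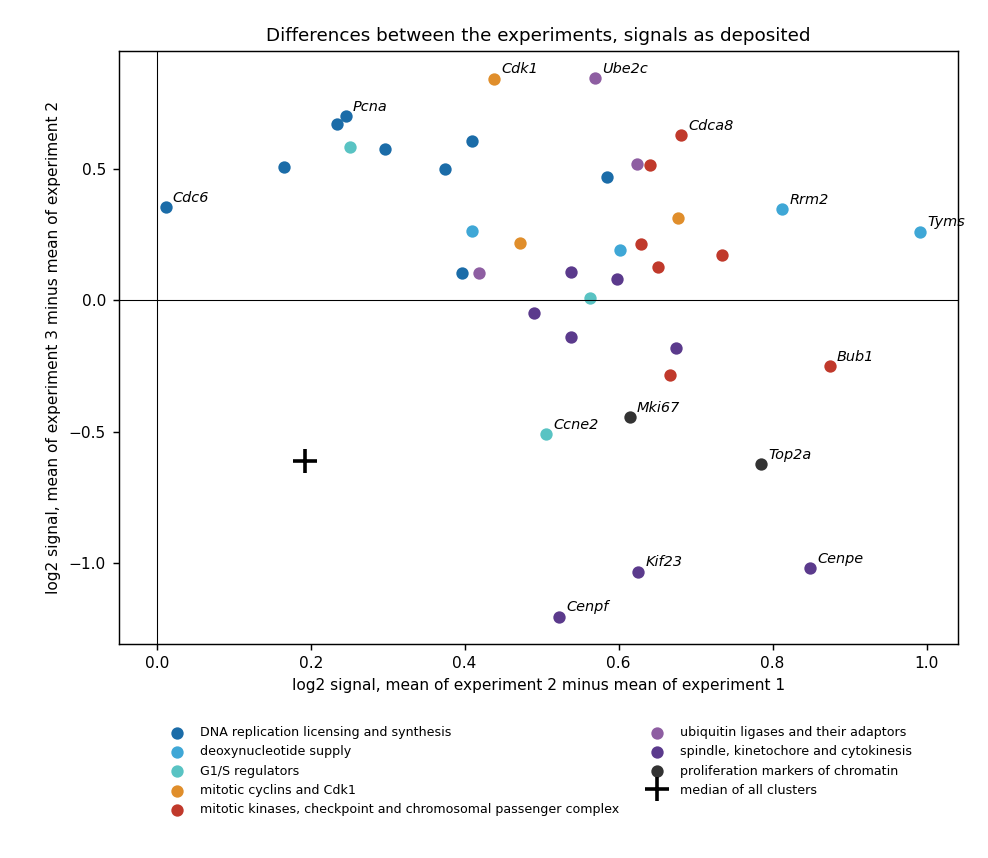
Difference in mean log2 signal between experiments 2 and 1 (horizontal axis) and between experiments 3 and 2 (vertical axis) for each of the 39 genes, coloured by role, in the signals as deposited. All points lie to the right of 0. *Ube2c* and *Cdk1* lie at 0.84 on the vertical axis and *Cenpf* at −1.20, and the cross marks the median of all clusters at 0.19 and −0.61.

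In 76 other genes of the cell cycle, among them origin, condensin and centromere genes, the mean was 1.40, 1.77 and 2.21 relative to the array median in experiments 1 to 3, but 7.12, 7.67 and 7.55 as deposited, where experiment 2 was highest. As deposited, experiment 2 lay above experiment 1 without overlap in 64 of the 76 (36.9% of all clusters) and experiment 3 in 49 (10.6% of all clusters). Experiment 3 lay above experiment 2 in 15 and below in 20 as deposited (7.57% and 66.7% of all clusters), and above in 42 and below in 3 relative to the array median (23% and 27%). For 23 genes of cell cycle exit and G1 control (CDK inhibitors, pocket proteins, D-type cyclins and others) the scale mattered. As deposited, experiment 2 lay above experiment 1 in 6 (26.1%) and experiment 3 in 2 (8.7%), both below the shares of all clusters. Relative to the array median the counts were 3 (13%, against 18.2% of all clusters) and 9 (39.1%, against 24.4% of all clusters). Markers of other stages and cell types also differed between the experiments, and the means of their lists are relative to the array median unless stated otherwise. The 11 markers of promyelocytes and primary granules, all above the median on all arrays, had a mean of 2.81 to 3.19 in experiment 1 and of 3.01 to 3.21 in experiment 2, but of 4.08 to 4.46 in experiment 3, so that experiment 3 was highest for them too, but experiments 1 and 2 overlapped. *Elane*, the neutrophil elastase, was at 9.45 to 10.4, 10.1 to 10.5 and 10.8 to 11.5 in these experiments. The 9 markers of mature neutrophils lay at 5.95 to 6.10, 5.93 to 5.99 and 6.20 to 6.59, highest in experiment 3. This order turned with the scale. As deposited their mean was 11.75, 11.85 and 11.66 in experiments 1 to 3, and after quantile normalization 11.84, 11.85 and 11.59, lowest in experiment 3 on both.

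Of the 12 B lineage markers 3 were above the median on all arrays, and the list had a mean in experiment 1 of 0.33 and 0.15 in wild type and of 1.14 and 1.05 in Card9-/-. Its mean lay between −0.82 and −0.72 in experiment 2 and between 1.29 and 2.03 in experiment 3. *Cd79b*, a chain of the B cell receptor, was at 7.59 to 9.22, 6.06 to 6.37 and 9.52 to 10.7. The 13 erythroid markers, 4 of them above the median on all arrays, had a mean in experiment 1 of 0.99 and 0.79 in wild type and of 0.00 and −0.03 in Card9-/-. Their mean lay between 0.78 and 1.10 in experiment 2 and between 0.53 and 0.81 in experiment 3. The 8 markers of T and NK cells, 2 of them above the median on all arrays, were at 0.07 to 0.33, −0.01 to 0.14 and 0.77 to 1.17. The 8 of eosinophils, basophils and mast cells, 4 of them above it on all arrays, were at 1.39 to 1.69, 0.78 to 1.29 and 1.40 to 2.64. In experiment 3 this last list had 1.66 and 1.40 in wild type and 2.64 and 2.58 in Card9-/-. There 8 of 8 markers were higher in Card9-/- on each surface. Over the 12 arrays, stem and progenitor markers (7 measured, 3 above the median on all arrays) lay between 0.14 and 0.72. Monocyte markers (8, of which 7 above it) lay between 1.62 and 2.42, and secondary granule markers (10, all above it) between 6.09 and 6.70. The mean of the secondary granule markers was highest in experiment 3 relative to the array median (6.55) but lowest there as deposited (11.89, against 11.93 and 12.03 in experiments 1 and 2). The part of these cells and of the array scale in the differences between experiments was not tested.

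**Figure D3:**
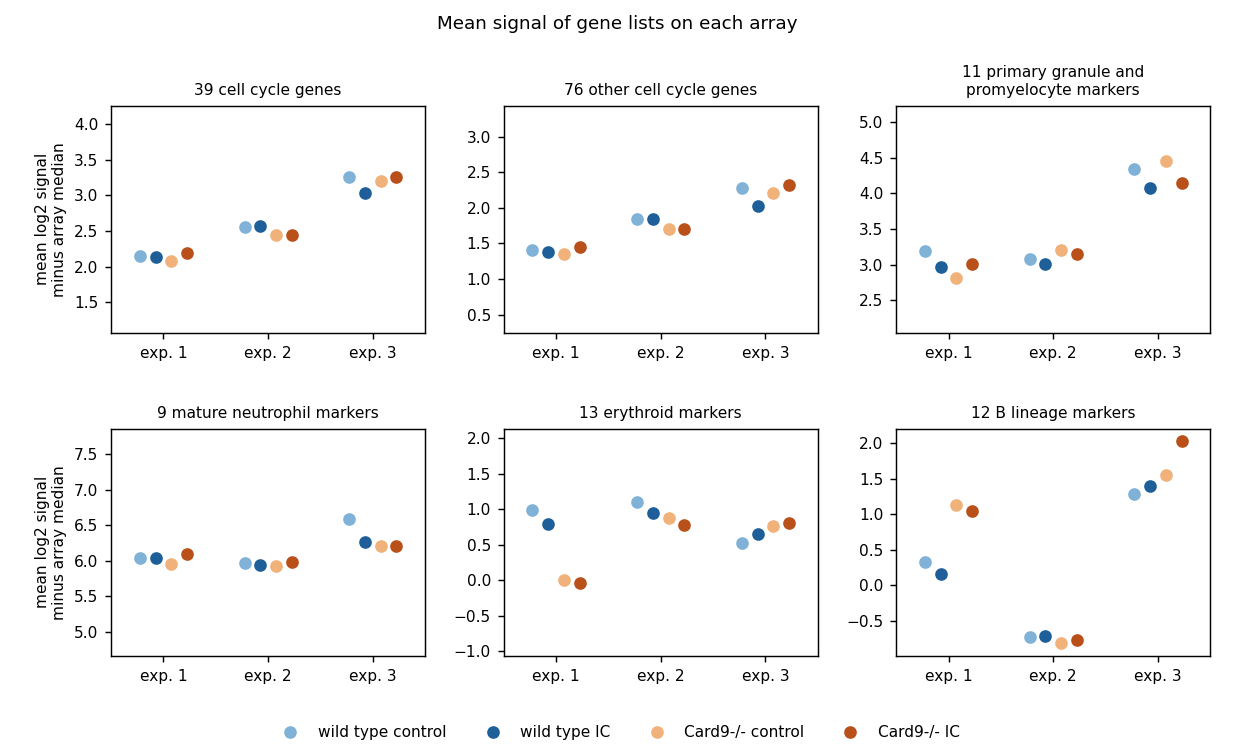
Mean log2 signal of a gene list minus the array median (vertical axis, each panel spanning the same range) on each of the 12 arrays, by experiment and coloured by group. The 39 cell cycle genes lie at 2.07 to 2.19, 2.45 to 2.57 and 3.03 to 3.26 in experiments 1, 2 and 3, and the erythroid and B lineage markers do not share their order.

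In wild type neutrophils the genes of the cell cycle lay close to 0 in the comparison of IC with control. By limma with the experiment as a block, 0 of 39 passed an adjusted p of 0.05 (0% of all clusters), and 0 of 39 had an unadjusted p under 0.05 (9.59% of all clusters). Their log2 differences between IC and control ran from −0.17 to 0.22 with a median of −0.03, beside a median of 0.04 over all clusters, and the 95% interval of 39 of 39 lay within ±0.5, as it did for 21257 of 28944 clusters. The medians of the 39 genes were 0.01, 0.04 and −0.14 in experiments 1, 2 and 3. In experiment 3 the direction turned with the scale. The mean of the 39 genes in wild type was 8.53 on control and 8.43 on IC as deposited, but 8.68 and 8.74 after quantile normalization. The smallest p belonged to *Mki67*, at 9.57, 10.2 and 9.66 on control and 9.82, 10.4 and 9.87 on IC in experiments 1 to 3. IC was the higher array in each experiment, by 0.26, 0.19 and 0.21, and the log2 difference was 0.22 (95% interval −0.01 to 0.45, adjusted p = 0.538 by limma). *Ccna2* (−0.15), *Kif23* (−0.14) and *Rrm2*, a subunit of ribonucleotide reductase (−0.17), were lower on IC in 3 of 3 experiments (adjusted p from 0.624 to 0.637 by limma). For *Rrm2* most of this was experiment 3, with −0.05, −0.07 and −0.41.

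In Card9-/- neutrophils on IC, again 0 of 39 genes passed (0% of all clusters). At an unadjusted p under 0.05 there was 1 gene (3.01% of all clusters), *Tk1*, the thymidine kinase that salvages thymidine for DNA synthesis. Its signals were 7.02, 7.56 and 7.96 on control and 6.81, 7.28 and 7.52 on IC. IC was the lower array in each experiment, with a log2 difference of −0.31 (standard error 0.11, adjusted p = 0.9998 by limma). A second cluster that names *Tk1* read 6.53, 7.18 and 7.79 on control and 6.64, 6.90 and 8.18 on IC, higher on IC in 2 of 3 experiments with a log2 difference of 0.07, so that the clusters of this gene disagree. The other genes with the smallest p were *Ube2c* (0.22), *Mki67* (0.22) and *Tpx2*, a spindle assembly factor that activates Aurora A (0.21), higher on IC in 3 of 3 experiments. The differences of the 39 genes ran from −0.31 to 0.22 with a median of 0.06, beside −0.01 over all clusters, and the experiment medians were 0.13, −0.0002 and −0.02. The interval lay within ±0.5 for 37 of 39, the exceptions being *Tk1* and *Cenpe*.

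**Figure D4:**
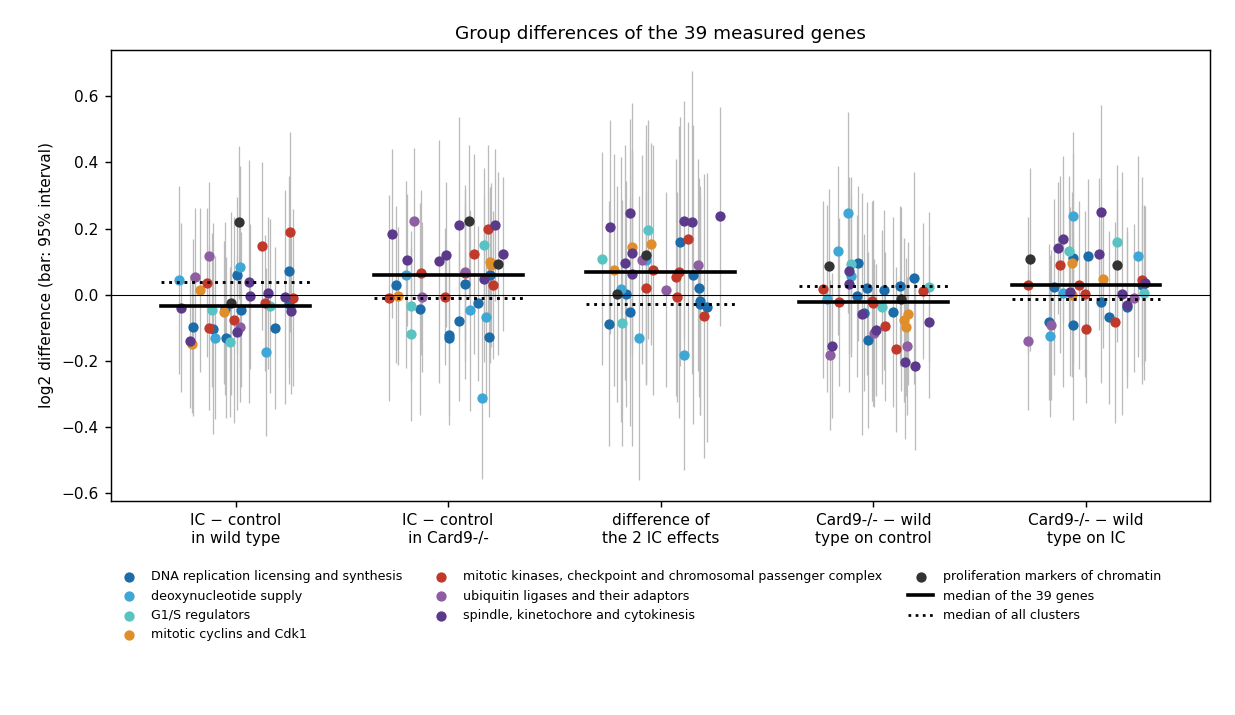
Log2 differences of the 39 genes (points, coloured by role, with 95% intervals) in the 5 comparisons, with the median of the 39 genes (solid line) and of all clusters (dotted line). The medians of the genes lie between −0.03 and 0.07, and the interval of the *Tk1* cluster used, in Card9-/- cells on IC, is the only one clear of 0.

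The difference of the IC effects between the genotypes asks whether the response depends on CARD9, and 0 of 39 genes passed the test (0% of all clusters), with 0 at an unadjusted p under 0.05 (3.68% of all clusters). The median was 0.07, beside −0.03 over all clusters, and the values ran from −0.18 to 0.25. This comparison is less precise, with intervals within ±0.5 for 25 of 39 genes. *Kif23* had the smallest p. In wild type cells its IC array was below control by 0.18, 0.08 and 0.17 in the 3 experiments, and in Card9-/- cells it was above by 0.04, 0.04 and 0.23. The difference of these effects was 0.25 (95% interval −0.04 to 0.53, adjusted p = 0.999 by limma), against 1.03 between experiments 3 and 2 for this gene. *Tpx2* (0.21), *Ccne1*, the cyclin E1 of S phase entry (0.20), and *Tk1* (−0.18) also had the same sign in 3 of 3 experiments.

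**Figure D5:**
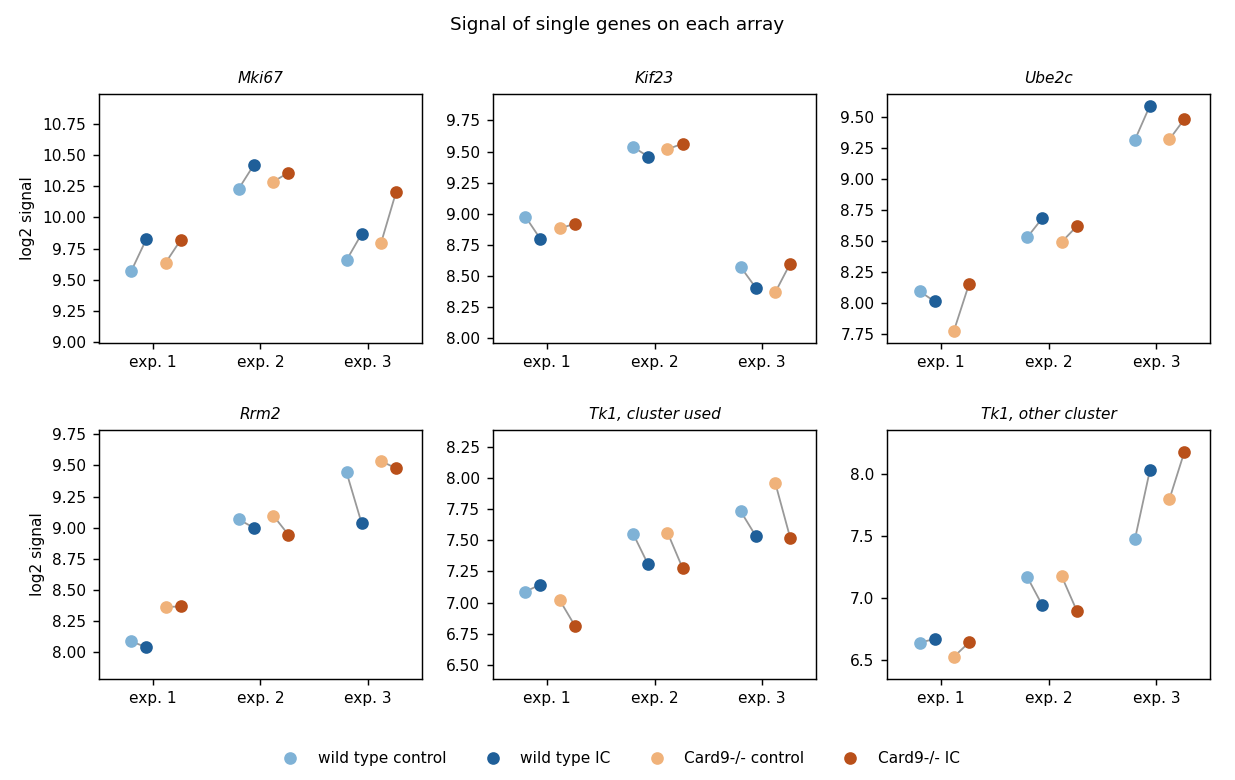
Log2 signal of *Mki67*, *Kif23*, *Ube2c*, *Rrm2* and both clusters that name *Tk1* on the 12 arrays, by experiment and coloured by group, with lines from control to IC within a genotype and all panels spanning the same range. *Mki67* is higher on IC in 6 of 6 pairs, and the clusters of *Tk1* run opposite ways in experiment 3.

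Between the genotypes on control, 0 of 39 genes passed (0.038% of all clusters, that is 11 clusters) and 0 had an unadjusted p under 0.05 (4.64% of all clusters). The differences ran from −0.22 to 0.25 with a median of −0.02, beside 0.03 over all clusters. *Kif20a*, a kinesin of cytokinesis (−0.20), *Cenpf* (−0.22) and *Cdc20*, the activator of the anaphase-promoting complex (−0.18), were lower in Card9-/- in 3 of 3 experiments, and *Tyms* was higher (0.25), with 0.14, 0.08 and 0.53. The adjusted p was 0.954 for each of these 4 by limma. Lower in 3 of 3 experiments were 11 of the 39 genes (28.2%), 12.8% of all clusters and 16.8% of those above the median signal. Higher in 3 of 3 were 4 of the 39 genes (10.3%). The experiment medians of the 39 genes were −0.07, −0.03 and 0.04, so that the direction turned in experiment 3. For IC against control in Card9-/- cells, 10 of the 39 genes were higher in 3 of 3 experiments and 4 lower. For the difference of the IC effects, 9 were higher and 2 lower. These counts were not tested.

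On IC, 0 of 39 genes passed (0.162% of all clusters, that is 47) and 0 had an unadjusted p under 0.05 (9.13% of all clusters). The differences between Card9-/- and wild type ran from −0.14 to 0.25 with a median of 0.03, beside −0.01 over all clusters. The experiment medians were 0.01, −0.07 and 0.15, and without experiment 3 the median turned to −0.04. *Kif23* (0.14), *Ccne1* (0.16) and *Kif11*, the motor that separates spindle poles (0.17), were higher and *Cdca3*, which promotes entry into mitosis (−0.14), lower in 3 of 3 experiments (adjusted p from 0.706 to 0.727 by limma). In 38 of 39 genes the interval lay within ±0.5. On the IC arrays of experiment 1 the mean of the 39 genes relative to the array median was 2.13 in wild type and 2.19 in Card9-/-. The erythroid markers had 0.79 and −0.03 on these arrays and the B lineage markers 0.15 and 1.05, in opposite directions. What such cells add to the signal of the 39 genes was not tested. Of 64 analyses over the comparisons and processing alternatives, 0 called any of the 39 genes.

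Among the 76 other cell cycle genes 0 passed in any of the 5 comparisons either. In wild type cells on IC 4 of the 76 had an unadjusted p under 0.05 (9.59% of all clusters), all lower. *Ttk*, the spindle checkpoint kinase MPS1, was the most even of them with −0.32, −0.37 and −0.35 in experiments 1 to 3 (log2 difference −0.35, adjusted p = 0.413 by limma). *Hmmr*, a spindle protein, was at −0.49 with −0.22, −0.21 and −1.04. In Card9-/- cells on IC there were 2, both higher (3.01% of all clusters). Between the genotypes there were 0 on control (4.64% of all clusters), and 4 higher and 2 lower on IC (9.13% of all clusters). Of the 23 genes of exit and G1 control, *Cdkn1a*, which encodes the CDK inhibitor p21, had log2 differences between IC and control of 0.54 in wild type and 0.48 in Card9-/- cells, higher in 3 of 3 experiments in each, with 0.97 and 1.01 in experiment 1 and 0.19 and 0.05 in experiment 3 (adjusted p = 0.486 and 0.9998 by limma). *Ccnd2*, cyclin D2, was higher on IC in wild type (0.43, adjusted p = 0.438 by limma) and *Rbl2*, the pocket protein p130 of resting cells, lower (−0.50, adjusted p = 0.438 by limma), in 3 of 3 experiments each.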

How the data were processed

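Signals of 12 Affymetrix mouse gene arrays (4 groups, 3 experiments, 150 ng of total RNA each) were used as deposited by the authors, as log2 values per transcript cluster; the sources used here do not say how the authors summarized and normalized them. Gene symbols came from the annotation of the platform. Of 35556 rows, 6612 read as control probe sets were left out and 28944 clusters were tested. The groups were fitted together with limma 3.58.1 (R 4.3.3) with the experiment as a fixed block (6 residual and 5.40 prior degrees of freedom), two-sided, with Benjamini-Hochberg adjustment over all clusters and a threshold of 0.05. The labels give each experiment as a time of its own that held all 4 groups, and deviations from the group means correlated at 0.67 to 0.87 for the same number and −0.80 to 0.36 for different numbers. Whether an experiment used separate mice is not stated, so that p values measure the spread between these arrays. Precision is limited by the number of arrays, which carry no depth.

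The genes, the other lists and the tests were chosen with earlier results of these data known. Full statistics were given to genes past the threshold or, where there were none, to the 4 with the smallest p and the same sign in all 3 experiments. Marker genes named are those with the highest signal, with *Ly6g* added because the labels give it; those named from the other cell cycle lists were chosen after their values were seen. Promoter windows are RefSeq's, read with Python 3.11.15 (pandas 2.3.3), and figures were drawn with matplotlib 3.10.9. The fit was tested on simulated data. The alternatives were leaving out each experiment, no block, a random block, centring or quantile normalization of the arrays, dropping dim clusters, robust eBayes, limma-trend, no moderation, only the arrays compared, and the mean over all clusters of a gene; other scales for the differences between experiments and the second cluster of *Tk1* were added after seeing the data. The second cluster of *Top2a* was also added after seeing the data. Raw array files were not used here.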

Additional observations from a re-analysis of the deposited data

Results flagged for a closer look

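*Kif23* was on opposite sides in the genotypes in all 3 experiments, lower on IC in wild type (log2 difference −0.14) and higher in Card9-/- (0.11), and equally its genotype difference was −0.11 on control and 0.14 on IC. The difference of the effects was 0.247 and did not pass the test (unadjusted p = 0.0816, adjusted p = 0.999 by limma). It was 1 of 39 genes looked at in this way.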

How the results depend on the processing

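No setting called any of the 39 genes in any comparison. Counts over all clusters did move. With the experiment left out (no block), between the genotypes 1 cluster on control (11 with the block) and 0 on IC (47 with the block) passed; a random block gave 105 on IC and 7 for IC in wild type. Without moderation both genotype counts were 0, with only the arrays compared they were 7 and 173, a robust fit gave 6 on control, and median centring 22 on IC. Leaving out an experiment gave 2 to 7 on control, 3 to 116 on IC and 1 to 51 for IC in wild type, where 0 passed with all arrays. The median of the 39 genes for the difference of the IC effects was 0.14 after centring (0.07 as deposited). The mean level of the genes, 0.37, 1.05 and 0.68 higher between experiments 2 and 1, 3 and 1, and 3 and 2 relative to the array median and spanning 1.18 over the arrays, was 0.54, 0.67, 0.13 and 0.81 without centring, and 0.94 and 0.57 for experiment 3 against 1 and 2 after quantile normalization. Genes of experiment 3 above experiment 2 were 30 after centring and 31 after quantile normalization (17 as deposited), those below 2 and 3 (7), and those below experiment 1 were 1 and 1 (2). Of 238 values of single genes under the alternatives, 237 kept their direction and their side of the threshold, and the exception was the second cluster of *Tk1* in Card9-/- cells on IC (0.07). The intervals, within ±0.5 for 25 to 39 of the 39 genes, set the size of difference that 3 arrays a group could show.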

Other observations

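The differences between IC and control of some mitotic genes varied between experiments. *Birc5*, which encodes survivin, was higher on IC in experiment 3 by 0.55 in wild type and 0.35 in Card9-/-, where experiment 1 had −0.08 and 0.10 and experiment 2 had 0.10 and −0.08. *Cdca8*, which encodes borealin of the same complex, was higher by 0.34 and 0.32 in experiment 3, by 0.12 and 0.31 in experiment 1, and at −0.01 and −0.03 in experiment 2. In experiment 3 *Top2a* was lower on IC in wild type by 0.38 and at 0.00 in Card9-/-. A second, dim cluster that names *Top2a* was higher on IC there by 0.25 in wild type and 1.55 in Card9-/-, so that its clusters disagree. These values are single arrays, were chosen after they were seen and carry no test.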
